A study of Mus musculus with 10 samples.

Results

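The interleukin-1 genes Il1a, Il1b and Il1rn were examined through every region that RelA or the glucocorticoid receptor (GR) was listed at in a window of 150 kb around Il1a and Il1b (chr2:129090000-129240000, mouse build mm9) and a window of 120 kb around Il1rn (chr2:24140000-24260000). Membership was decided by position alone. The windows held 34 of the 114312 regions in 9 chromatin immunoprecipitation (ChIP-seq) lists, 13 of them RelA regions and 21 GR regions. Of these, 28 lay in the Il1a and Il1b window and 6 in the Il1rn window. The list of input DNA from untreated cells had no region in either window, and none of the 34 regions overlapped an input region. That input is labelled as the control for RelA ChIP, and the series lists no separate input for GR.

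All libraries came from bone marrow derived macrophages of C57BL/6J mice. RelA, or p65, carries the activating part of the NF-κB transcription factor. It was precipitated after 0, 3 and 8 h of lipopolysaccharide (LPS, from the outer membrane of bacteria, which switches NF-κB on) without Dex. It was also precipitated at those 3 times in cells pretreated for 3 h with dexamethasone (Dex, a synthetic glucocorticoid). A last RelA library had 8 h of LPS and late Dex, whose hour the labels do not state. GR was precipitated from cells given Dex and from cells given both agents; the labels name no time for either. RelA chromatin was fixed with formaldehyde and GR chromatin with disuccinimidyl glutarate and formaldehyde, and the antibodies differ, so levels of the 2 proteins are not on 1 scale. Each condition had 1 library. No spread between replicates is known, and every difference below is between 2 libraries, with no test. Which gene a region acts on was not determined. Region lists hold no expression values, and macrophage marker genes were not placed on them because the annotation at hand is of another build (GRCm38.p6).

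Il1a and Il1b encode interleukin-1α and interleukin-1β, cytokines that signal through the same receptor and drive fever and leukocyte recruitment. Il1b is a classic NF-κB target of LPS-stimulated macrophages, and caspase-1 can cut its product into the active form. Il1rn encodes the interleukin-1 receptor antagonist, which occupies that receptor without signalling and so limits the action of both cytokines. GR, once bound by a glucocorticoid, enters the nucleus and restrains many NF-κB target genes. In the RefSeq gene table for GRCm38.p6, Il1a and Il1b are adjacent coding genes between Ckap2l and F830045P16Rik, and Il1rn lies on the same chromosome between Il1f10 and Psd4.

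The sequences before the annotated starts are shown to give the 3 genes' own promoters, since RelA was listed in the windows of all 3. They are the 250 bases before the start in the RefSeq promoter table, which had 1 start for Il1a, 1 for Il1b and 3 for Il1rn; the second and the third of Il1rn are close together and the second is printed. The positions below are on GRCm38.p6 and cannot be compared with the mm9 positions of the regions, so whether a listed region covers any of these bases was not determined. Capitals mark matches, on either strand, to the κB pattern GGGNNNNNCC, its first part GGGAA, the GR hexamer AGAACA, the PU.1 core GAGGAA and the AP-1 pattern TGANTCA, and, on the gene's strand, to TATAAA.
Il1b, chr2:129371140-129371389, minus strand: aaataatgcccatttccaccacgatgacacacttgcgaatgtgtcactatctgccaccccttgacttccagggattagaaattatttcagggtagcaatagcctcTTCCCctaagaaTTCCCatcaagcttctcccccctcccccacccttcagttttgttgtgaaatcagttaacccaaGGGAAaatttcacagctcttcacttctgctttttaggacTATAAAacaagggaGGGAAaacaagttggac
Il1a, chr2:129309973-129310222, minus strand: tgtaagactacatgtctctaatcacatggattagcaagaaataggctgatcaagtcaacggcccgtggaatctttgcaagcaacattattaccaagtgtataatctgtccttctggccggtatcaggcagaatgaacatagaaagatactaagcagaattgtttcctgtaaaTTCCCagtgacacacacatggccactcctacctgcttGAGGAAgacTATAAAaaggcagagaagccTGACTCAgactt
Il1rn, upstream start, chr2:24336610-24336859, plus strand: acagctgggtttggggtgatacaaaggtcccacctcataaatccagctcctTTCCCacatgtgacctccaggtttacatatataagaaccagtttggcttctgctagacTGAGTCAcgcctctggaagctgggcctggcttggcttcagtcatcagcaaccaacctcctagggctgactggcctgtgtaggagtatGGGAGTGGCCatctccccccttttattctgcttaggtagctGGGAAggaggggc
Il1rn, downstream start, chr2:24345041-24345290, plus strand: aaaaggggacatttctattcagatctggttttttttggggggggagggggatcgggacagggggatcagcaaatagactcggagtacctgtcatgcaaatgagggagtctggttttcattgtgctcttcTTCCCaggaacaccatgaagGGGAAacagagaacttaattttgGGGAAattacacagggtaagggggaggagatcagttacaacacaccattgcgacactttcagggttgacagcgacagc

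The full κB pattern was found once before the upstream start of Il1rn, as GGGAGTGGCC, and once before the third start, as GGGTTTTTCC. It was not found in these windows of Il1a and Il1b, while 45.8% of the 32851 promoter windows in the table hold it. GGGAA occurred in every one of the 5 windows and 4 times in that of Il1b, against 56.2% of all windows holding at least 1 match. A TATAAA match lay 32 bases before the start of Il1a and 31 before that of Il1b, and none lay in the windows of Il1rn; 7.59% of all windows hold one. The AP-1 pattern was in those of Il1a and of the upstream start of Il1rn (6.75% of all windows), and the PU.1 core in that of Il1a (23.3%). AGAACA matched none of the 5 (16.1% of all). These matches describe letters and not bound sites.

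RelA was listed at 7 places in the windows, and only in the 2 lists of LPS without Dex. Regions of the 9 lists that shared at least 1 bp, directly or through another region, were joined into 1 site. The RelA sites are numbered by position, sites 1 to 6 in the Il1a and Il1b window and site 7 in the Il1rn window. Each library is described by the highest tag density of the region (the authors' pile-up of sequenced tags, whose scaling between libraries is not stated) and by the authors' z-score. In resting cells, at 0 h, no RelA region was listed in either window. That list was short, with 83 regions of which 36 overlapped input. Its region nearest to the Il1a and Il1b window lay 38363 kb away, so absence at 0 h is not particular to these windows.

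**Figure D1:**
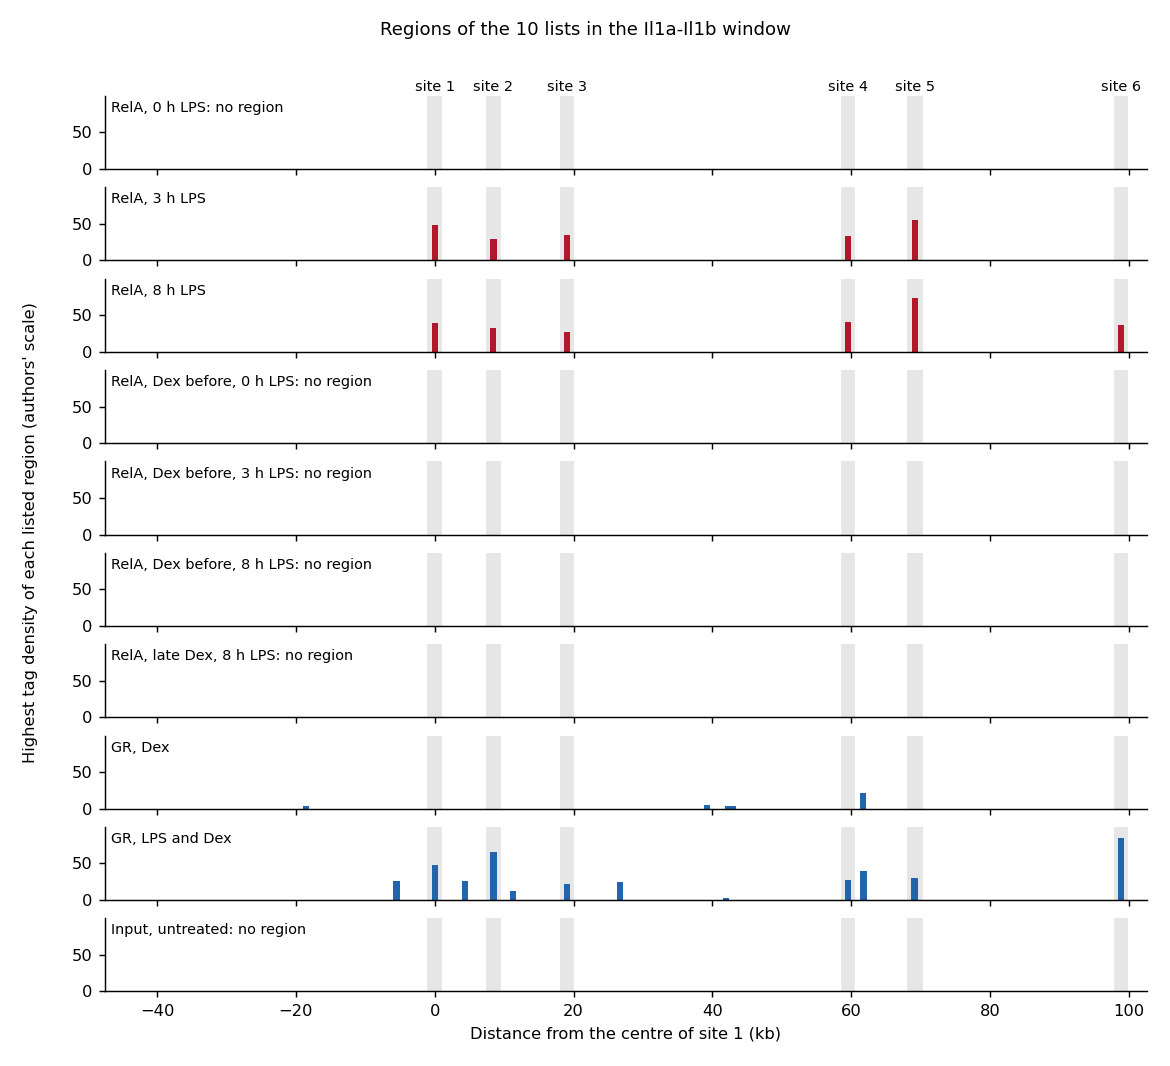
The 10 lists in the Il1a and Il1b window, 1 panel per library: each bar is a listed region, placed by its distance in kb from the centre of site 1, with the highest tag density on the authors' scale as its height, and grey bands mark RelA sites 1 to 6. Bars of RelA stand only in the panels of 3 h and 8 h of LPS without Dex, and GR with LPS and Dex has a bar in every grey band.

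Site 1, at chr2:129137055-129137865 in the 3 h list, had a highest tag density of 49.1 at 3 h and 38.9 at 8 h. Site 2, at chr2:129145515-129146339, had 29.1 and 32.4. Site 3, at chr2:129156147-129156858, had 35.4 and 27.4. In the 3 h list these 3 sites follow one another with gaps of 7.65 and 9.81 kb and then leave 39.8 kb free of listed RelA. Site 4, at chr2:129196612-129197382, had a density of 33.8 at 3 h and 40.7 at 8 h. Site 5, at chr2:129206259-129207086, was the densest RelA region of the windows at both times, with 55.5 and 73.4. Site 6, at chr2:129236058-129236613, was listed at 8 h alone, with 36.6, and lies 29.0 kb beyond site 5 near the edge of the window. From the first to the last, the 6 sites spanned 99.6 kb.

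The Il1rn window had a single RelA site. Site 7, at chr2:24200429-24201126 at 3 h, had a density of 23.9 at 3 h, the lowest of the 6 RelA regions of that time, and 48.3 at 8 h, the second highest of the 7. It stood alone in the 3 h list: the nearest other RelA region lay 1186 kb before it and 850.3 kb after it. At Il1a and Il1b neighbouring 3 h regions were 7.65 to 39.8 kb apart, and the nearest RelA region outside the window was 75.4 kb from its edge.

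**Figure D2:**
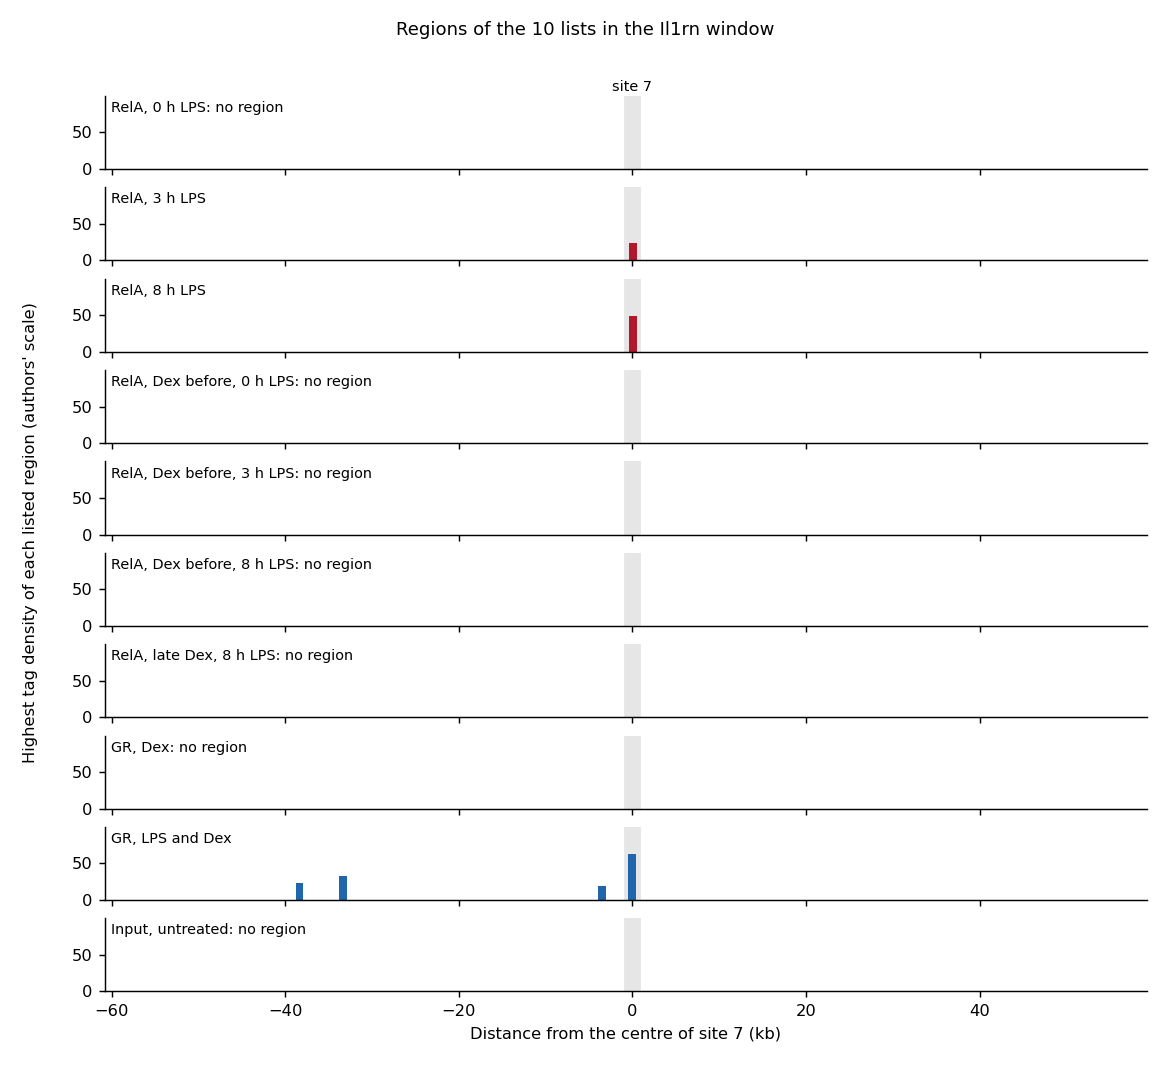
The 10 lists in the Il1rn window, 1 panel per library, drawn as for Il1a and Il1b, with distance in kb from the centre of site 7. RelA without Dex has 1 bar at each LPS time, of 23.9 and 48.3, and GR with LPS and Dex has 4, the highest of them (63.0) at site 7.

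RelA regions were many at Il1a and Il1b and single at Il1rn. The Il1a and Il1b window held 5 RelA regions at 3 h and 6 at 8 h. When the chromosomes were cut into tiles of the same length, 0.579% of 17619 tiles held at least 5 regions of the 3 h list and 0.0227%, or 4 tiles, at least 6 of the 8 h list. The Il1rn window held 1 region at each time, and of 22020 tiles of 120 kb, 14.1% held at least 1 at 3 h and 6.13% at 8 h. The windows were drawn around genes and the tiles on a fixed grid, so these shares only describe how common such counts are.

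Within their lists the RelA regions of the windows were in the upper part by density. At 3 h, site 5 ranked 183 and site 1 ranked 262 of 5017 regions, site 3 ranked 590, site 4 ranked 656, site 2 ranked 922 and site 7 ranked 1449. At 8 h, site 5 ranked 57 of 1890 and site 7 ranked 217, followed by site 4 (325), site 1 (356), site 6 (416), site 2 (556) and site 3 (794). The median percentile of the members was 87.6 at 3 h and 81.2 at 8 h. By score the order at 8 h was the same except that site 1 (rank 472) came before site 4 (rank 504). Site 5 (38.4) and site 7 (36.1) again had the highest scores, and site 3, with a score of 11.8, ranked 1651.

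Every RelA region of the windows at 3 h was listed again at 8 h, 6 of 6, beside 31.3% of the whole 3 h list. In the other direction 6 of 7 regions at 8 h were listed at 3 h, beside 83.9% of the 8 h list, the exception being site 6. Shared regions were placed alike, with centres 12.5 to 81.5 bp apart. The members stood in the upper part of the 3 h list by density, and the share among 3 h regions of like density was not computed.

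The change in density from 3 h to 8 h differed among the sites. Over the 1556 regions of the 3 h list that were also listed at 8 h, the median log2 ratio of 8 h to 3 h was 0.04 (quartiles -0.34 and 0.36), and 53.0% were above 0. At site 7, in the Il1rn window, the log2 ratio was 1.02, higher than or equal to that of 96.6% of those regions. Site 5 had 0.40 and site 4 had 0.27, at percentiles 78.5 and 69.3 of the shared regions. Site 2 had 0.16. Sites 1 and 3 were lower at 8 h, with -0.33 and -0.37, at percentiles 25.3 and 23.7. By score, the median log2 ratio over the same 1556 regions was -0.14, and 39.7% were above 0. Of the 5 shared sites of the Il1a and Il1b window, 4 had a lower score at 8 h, and site 5 had a higher one (31.2 and 38.4), as did site 7 (22.1 and 36.1). The difference between site 7 and the sites of the other window rests on 1 library per time.

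**Figure D3:**
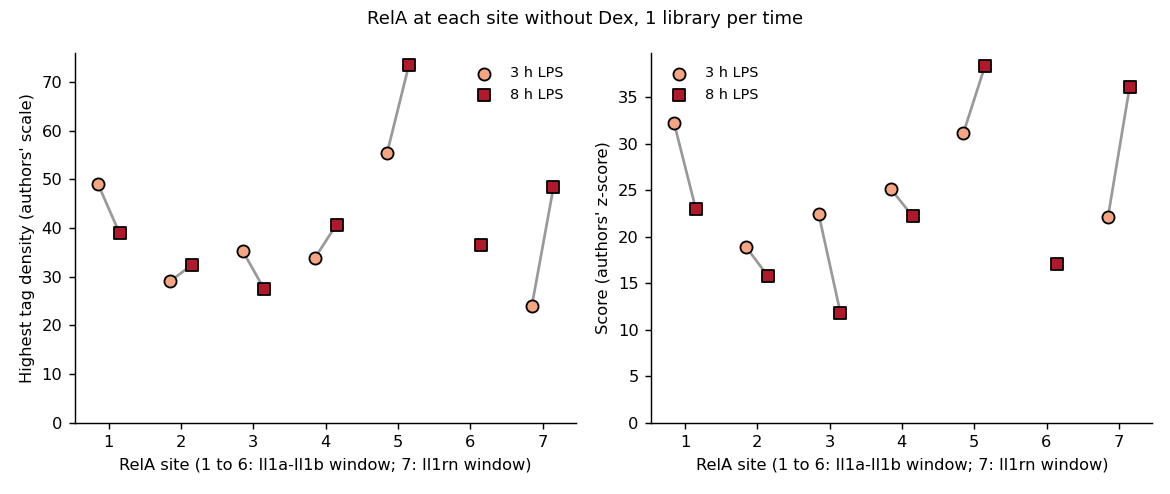
RelA at sites 1 to 7 without Dex, as highest tag density (left) and as the authors' z-score (right): circles are 3 h and squares 8 h of LPS, 1 library each, and lines join the values of a site. Site 7 goes from 23.9 to 48.3 in density, site 5 has the highest density at both times and the highest score at 8 h, site 1 has the highest score at 3 h (32.2), and site 6 has a value at 8 h alone.

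With Dex given before LPS, no RelA region was listed in either window at 0, 3 or 8 h of LPS. None of the 6 regions of 3 h without Dex was listed after pretreatment, beside 0.241% of the whole 3 h list, and none of the 7 regions of 8 h, beside 0.160% of the 8 h list. Absence at these genes is therefore what nearly the whole list showed. The pretreated lists were short, 84 regions at 3 h and 78 at 8 h, of which 51 and 63 overlapped input. How far the depth or the recovery of those libraries contributed was not tested. The nearest regions to the Il1a and Il1b window in the pretreated lists were 37121 kb away for 3 h and 30914 kb away for 8 h.

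With late Dex, too, no RelA region was listed in either window, in a list of 250 regions of which 25 overlapped input. None of the 7 RelA regions of 8 h was listed with late Dex, where 10.8% of the 1878 regions of the 8 h list outside input were. The share of the 8 h list that was also listed with late Dex was larger among denser regions, so each site was read beside regions of its own level. It was 2.20% of 773 regions between 20 and 30, the range of site 3, and 11.3% of 311 between 30 and 40, the range of sites 1, 2 and 6. It was 20.3% of 138 between 40 and 50, the range of sites 4 and 7, and 66.7% of 21 between 70 and 80, the range of site 5. Of all 8 h regions at least as dense as site 3, the least dense of the 7, 23.1% were listed with late Dex.

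Site 5 was among the densest regions of the whole 8 h list. Of the 57 regions at least as dense as it at 8 h, 49 were listed with late Dex (86.0%), and site 5 was 1 of the 8 that were not. Ranked by score, 93 of the 134 regions with at least the score of site 5 were listed with late Dex (69.4%). For site 7 the share was 55.3% of the 215 regions at least as dense. Each of these sets starts at the site's own value, so it leans to regions with higher values, which were listed more often. Within the density bins the share was lower, 66.7% of 21 regions for site 5 and 20.3% of 138 for site 7. At the 202 regions listed both with late Dex and without Dex, the median density was 24.3 with late Dex and 53.4 without, with a median ratio of 0.435. A place missing from a list may hold RelA below the authors' threshold or none, and the lists cannot tell these apart. Of the regions that the late Dex list does hold, 5% had a density of 13.1 or less. The nearest region of that list lay 90.1 kb beyond the edge of the Il1a and Il1b window, at chr2:129330077-129330548, with a density of 22.7.

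**Figure D4:**
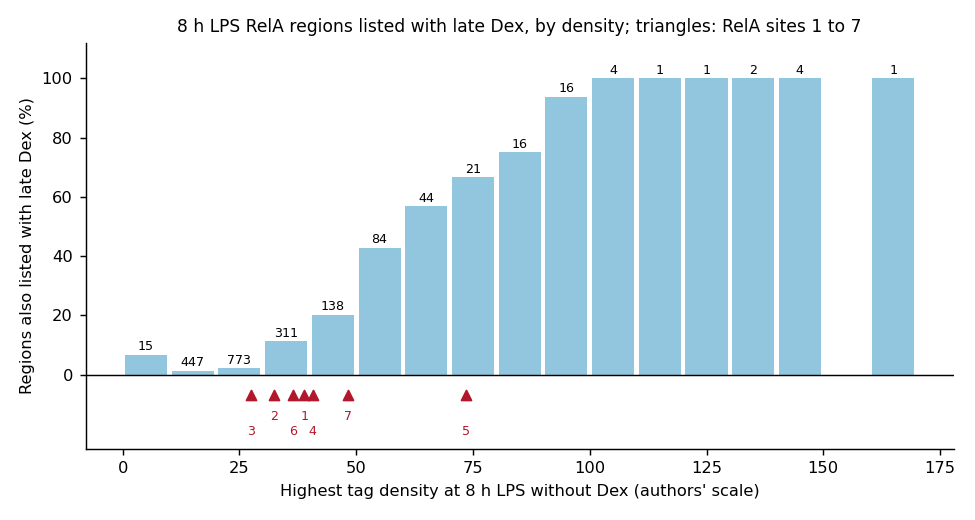
Share of the RelA regions of 8 h LPS that were also listed with late Dex (vertical axis, %), by highest tag density at 8 h without Dex (horizontal axis, authors' scale), with the number of regions above each bar and triangles at the densities of RelA sites 1 to 7. The share climbs to 66.7% in the bin of site 5, and none of the 7 sites was listed with late Dex.

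GR was listed at many places in the Il1a and Il1b window when both LPS and Dex were present. The list of LPS and Dex held 12 regions in the Il1a and Il1b window and 4 in the Il1rn window, and 15 of the 16 had a highest tag density of at least 10, beside 31.9% of the whole list. The list of Dex alone held 5 regions in the Il1a and Il1b window and none in the Il1rn window, and 1 of the 5 reached a density of 10, beside 6.80% of the list. The other 4 lay between 3.59 and 4.78. Of the 150 kb tiles, 1.42% held at least 12 regions of LPS and Dex, and 25.5% held at least 5 of Dex. At least 4 regions of LPS and Dex were in 25.2% of the 120 kb tiles, so the count in the Il1rn window was a common one.

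All 7 RelA sites carried GR in the LPS and Dex list and none did in the Dex list. The whole lists gave, for GR with LPS and Dex, 62.0% of the RelA regions at 3 h (6 of 6 here) and 85.8% of those at 8 h (7 of 7 here). For GR with Dex they gave 17.5% and 18.4%, with 0 of 6 and 0 of 7 here. For so few regions, both counts at 8 h are near the shares of the whole list and are not read as particular to these windows. Counted from GR, 7 of the 16 regions of LPS and Dex met RelA at 8 h, beside 3.13% of the whole GR list. These RelA regions come from cells without Dex and the GR regions from cells with LPS and Dex. Most of the 16 GR regions were dense, 15 of them with a density of at least 10, beside 31.9% of the whole GR list. Shares with GR among RelA regions of like density, and with RelA among GR regions of like density, were not computed.

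The densities of GR and RelA did not follow the same order over the sites. GR with LPS and Dex was highest at site 6, with 84.4, where RelA was listed at 8 h alone. It was 66.0 at site 2, 63.0 at site 7 and 48.2 at site 1. It was 30.2 at site 5, the densest RelA site, 26.9 at site 4 and 22.0 at site 3. Site 3 also had the lowest GR score of all 16 regions, 10.0, close to the lowest of that whole list, 9.66. With a score of at least 11, the RelA regions that met GR with LPS and Dex numbered 5 at 3 h and 6 at 8 h. The centres of RelA and GR with LPS and Dex lay 0.50 to 110.5 bp apart at 3 h (median 41.2 bp, 6 regions) and 5.0 to 126 bp at 8 h (median 64.5 bp, 7 regions). Medians over all overlapping regions of the lists were 53.0 and 44.0 bp, and the measure is limited to regions that overlap.

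**Figure D5:**
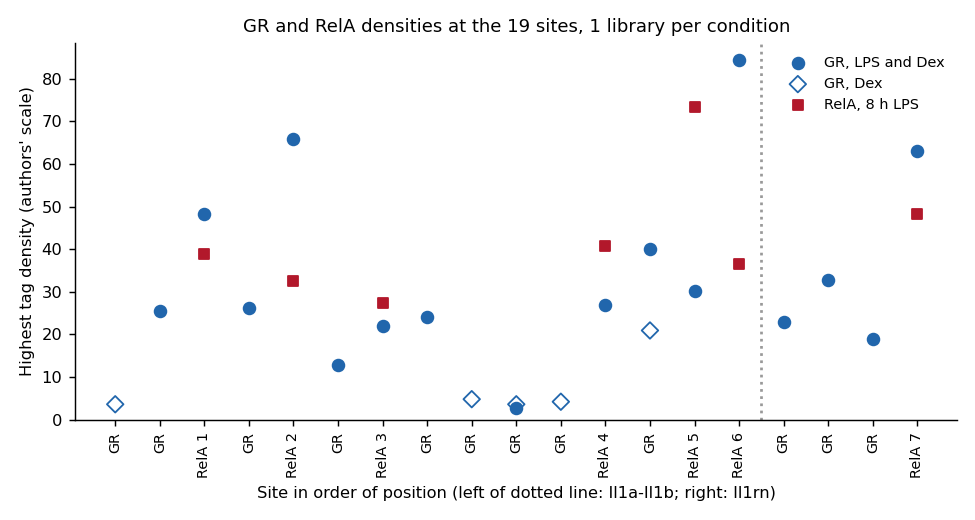
Highest tag density (authors' scale) at the 19 sites of both windows in order of position: filled circles are GR with LPS and Dex, open diamonds GR with Dex, and squares RelA at 8 h of LPS, 1 library each, with the dotted line between the windows. GR with LPS and Dex is present at all 7 RelA sites and highest at site 6 (84.4), and GR with Dex is above 10 at 1 site only.

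Apart from RelA, GR was listed at 12 further sites, 9 in the Il1a and Il1b window and 3 in the Il1rn window. Of these, 7 were listed with LPS and Dex alone, 3 with Dex alone and 2 in both lists. The 9 regions of LPS and Dex away from RelA had a median density of 24.1 (2.67 to 40.1), against 48.2 (22.0 to 84.4) for the 7 at RelA sites. The median of the whole list was 4.01. Its regions with and without RelA were not compared, so whether this contrast is particular to the windows is not known. The densest of the 9, at chr2:129198838-129199598, begins 1.46 kb beyond site 4 and had 40.1 with LPS and Dex and 20.9 with Dex. It was the only place in the windows where GR with Dex reached a density of 10, and no RelA list held it. Over the 19179 Dex regions that were also listed with LPS and Dex, the median log2 ratio was 0.16, and here it was 0.94, higher than or equal to that of 84.8% of them. The next were at chr2:24167037-24167731 in the Il1rn window (32.8) and chr2:129141462-129142250 (26.3) between sites 1 and 2, both with LPS and Dex alone.

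The GR lists met at 2 places in the windows. Of the 16 regions of LPS and Dex, 2 met a Dex region, beside 37.4% of the whole list. Of the 5 Dex regions 2 met one of LPS and Dex, beside 35.0%, a share near that of the whole list. Both counts were 1 with a reciprocal overlap of 50%, with centres within 250 bp, or at a density of at least 10. The second shared place was weak in both, with 3.59 and 2.67. In the Il1rn window the region nearest to site 7 was one of LPS and Dex that ended 2.88 kb before it (density 19.0), and the nearest region of the Dex list lay 30.3 kb outside the window, with a density of 1.20.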

How the data were processed

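The authors deposited 1 list of enriched regions per library, placed on mm9; CASAVA is named in the submitters' processing notes. The method and threshold of region calling, and the handling of duplicate tags, were not given in the sources used here. Per the file headers, each region has a highest and a mean tag density (signal values, scaling not stated), a z-score and a p-value; the deposited p-value was not used. The score and signal are the authors' own values. They rank regions within a list, and values of 2 libraries set side by side carry the unknown scaling. Depth is not given, and no interval or test was computed. The genes, windows and comparisons were chosen with earlier results of these data known.

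Overlap meant at least 1 bp, and shares of whole lists leave out regions on input. Ratios use the densest partner. Every RelA site was to be described in full, and of the GR sites without RelA the 3 of highest density in the LPS and Dex list. Density bins, strata at a site's level and the ratios by score or mean density were chosen after seeing the data. The overlap routine was tested on simulated data. Python 3.11.15, pandas 2.3.3, numpy 2.4.6 and matplotlib 3.10.9 were used. Promoter sequences are RefSeq's (GRCm38.p6). Other genes of the interleukin-1 pathway were not placed, since gene positions on mm9 were not used here.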

Additional observations from a re-analysis of the deposited data

How the results depend on the processing

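No paired analysis was possible because each condition had 1 library. Window edges moved by 25 kb either way, regions on input left out, a score of at least 11 and merging within 500 bp changed no count of regions in a window by more than 1.5 times. A highest tag density of at least 10 left 1 of the 5 Dex GR regions of the Il1a and Il1b window. Without GR the sites are by construction the 6 and 1 RelA sites, in place of 15 and 4. Overlap between the GR lists went from 2 to 1 in both directions with at least 50% of both regions shared, with centres within 250 bp, and at a density of at least 10. The counts of RelA regions listed at the other time, after pretreatment, with late Dex, or with GR stayed within 1.5 times under these settings. For the log2 ratio of 8 h to 3 h less the list median, the score (chosen after seeing the data) in place of density gave -0.12 at site 2 (0.12 by density) and -0.036 at site 4 (0.23 by density), so their direction depends on the measure, and -0.78 at site 3 (-0.41 by density); the cause was not tested. Sites 1, 3, 5 and 7 kept their direction by score and by mean density. With 1 library per condition and depth unknown, a region absent from a list cannot be told apart from one below its threshold.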
